A study of Mus musculus with 8 samples.

Results

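The *HoxA* cluster genes described here are *Hoxa2*, *Hoxa3*, *Hoxa4*, *Hoxa5*, *Hoxa6*, *Hoxa7*, *Hoxa9*, *Hoxa10* and *Hoxa11*, which are 9 of the 36406 gene or transcript names on a mouse expression array. They were taken as every probe that is not a control and carries one of these names, which gave 10 of 55681 probes, because *Hoxa9* has a second probe. RNA came from E14Tg2A.4 cells, an established line of mouse embryonic stem (ES) cells. In the untreated condition (4 biological replicates) the cells were self-renewing, and in the RA condition (4 biological replicates) they had received 1 µM all-trans retinoic acid (RA) for 72 h in medium from which leukemia inhibitory factor had been left out. Both conditions share the cell line, and the effect of RA cannot be told apart from that of the missing factor or of the time in culture. Each array reports 1 RNA sample in 1 colour, and levels are given as the log2 of the background-corrected intensity minus the 75th percentile of the array, so that 0 is the level of a fairly bright spot and not an absence of signal. A spot was well above background when the scanner software marked it so, and the level of the dimmest such probe lay between -6.50 and -5.20, depending on the array.

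Hox genes encode homeodomain transcription factors that give cells their position along the body axis. The genes of a cluster lie in the order in which they are used along that axis, and those at the *Hoxa2* end are read earlier and further forward in the embryo than those at the *Hoxa11* end. In ES cells the cluster is a classical target of Polycomb complexes, and RA, bound by its nuclear receptors, is a known inducer of the genes at the *Hoxa2* end, in the hindbrain as well as in cultured stem cells. The 10 probes lie on chromosome 6 over 79.6 kb (mm9), all on the minus strand, from the *Hoxa2* probe at chr6:52112595-52112654 to the *Hoxa11* probe at chr6:52192107-52192166. The labelling started from the poly(A) tail, and the probes begin between base 867 and base 2457 of their transcripts, except that of *Hoxa6*, which begins at base 370. The *Hoxa6* probe is shown because *Hoxa6* is the member whose value rests most on a single spot. It was read from the array's own probe column (chr6:52158194-52158253, mm9, minus strand), and the capitals mark the codons of the core of the hexapeptide through which Hox proteins bind Pbx cofactors, so the probe lies in the coding sequence.

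Hoxa6 probe: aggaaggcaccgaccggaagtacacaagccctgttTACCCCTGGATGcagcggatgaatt

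After RA, 5 of the 9 members were called higher, namely *Hoxa2*, *Hoxa3*, *Hoxa4*, *Hoxa5* and *Hoxa7*, and 1 was called lower, *Hoxa11*, which was well above background on no array. The other 3, *Hoxa6*, *Hoxa9* and *Hoxa10*, were not called. A call needs an adjusted p under 0.05 in limma, with Benjamini-Hochberg adjustment over all probes, and a fold change above 1.5. By the same rule 12.9% of all 55681 probes were called higher and 21.6% lower. The median change of the 9 members was 1.95 on the log2 scale, against -0.28 for all probes. That median of all probes depends on the scaling and was -0.0026 with quantile normalization, so a change of this size carries no direction by itself.

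Among the first members of the cluster, *Hoxa2*, which patterns the hindbrain and the second branchial arch, had levels of -5.94, -7.50, -7.27 and -7.45 in untreated replicates 1 to 4 and of -0.72, -0.26, 0.96 and 0.80 in RA replicates 1 to 4. No untreated spot was well above background and all RA spots were, so the rise is given as an approximate lower limit. It is counted from the dimmest probe well above background on each untreated array, and for *Hoxa2* it was 57.3-fold (adjusted p = 1.06e-05). The limit is not strict, since a spot brighter than that probe can stay unmarked, as *Hoxa4* did in untreated replicate 1 (-5.15 against -5.23). Such limits, given below as at least a fold, hold for the background correction of the scanner software alone. The change of *Hoxa2* was 14.9- to 16.1-fold with normexp or in the authors' values. *Hoxa3*, which is needed for the thymus, the parathyroid and cartilages of the neck, is the only member of this end that was well above background on all 8 arrays. Its levels were -4.44, -4.26, -5.56 and -4.46 in untreated cells and 1.89, 1.89, 2.77 and 2.55 after RA. All RA arrays lay above all untreated arrays, with a change of 6.96 ± 0.33 (SE) on the log2 scale, or 124-fold (adjusted p = 2.94e-06).

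*Hoxa4*, which acts in the neck vertebrae, rose less than the members on either side of it. Its levels were -5.15, -4.97, -5.44 and -5.44 in untreated cells, where 2 of 4 spots were well above background, and -2.72, -2.87, -0.91 and -1.13 after RA. The conditions did not overlap, and the change was 3.34 ± 0.45 (SE), or 10.1-fold (adjusted p = 4.63e-04). *Hoxa5*, which is required for the lung and for the identity of vertebrae at the border of neck and thorax, was not well above background on the 4 untreated arrays, at -7.53, -7.95, -8.0 and -7.53. After RA it stood at -1.44, -1.76, 0.95 and 0.28, so it was at least 35.6-fold higher (adjusted p = 2.45e-05), against 11.7- to 12.6-fold with normexp or in the authors' values.

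*Hoxa6*, next to *Hoxa5*, was not called. Its levels after RA were -5.31, -4.65, -4.89 and -4.52, and its untreated levels were -4.85, -1.53, -5.01 and -5.18, so that the conditions overlapped and untreated replicate 2 stood apart. Apart from that array its levels were dim, between -5.31 and -4.52. The change was -0.70 ± 0.75 (SE; adjusted p = 0.457) and 0.17 without untreated replicate 2. The spot in question carried no outlier flag, and 22 spots around it that were well above background in the other untreated arrays had a median shift of -0.04 on that array, against 3.48 for the *Hoxa6* spot. *Hoxa7*, which like *Hoxa6* acts in the thorax, already had a clear signal in untreated cells, at -0.77, -1.49, -2.17 and -1.83, and was at -0.06, -0.46, 1.02 and 1.04 after RA. All RA arrays lay above all untreated arrays, although the nearest values were close, and the change was 1.95 ± 0.42 (SE), or 3.87-fold (adjusted p = 5.75e-03).

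The members from *Hoxa9* onwards had little or no signal in either condition. *Hoxa9*, a regulator of blood stem and progenitor cells, stood at -4.92, -6.06, -5.04 and -5.70 in untreated cells and at -5.16, -4.87, -5.51 and -5.13 after RA for its brighter probe, and the conditions overlapped (change 0.27 ± 0.28 SE, adjusted p = 0.446). Its second probe was well above background on no array (change -0.53, adjusted p = 0.182). *Hoxa10*, which acts in the lumbar vertebrae and the uterus, was likewise well above background on no array, between -7.69 and -6.11 in untreated cells and between -6.85 and -5.75 after RA (adjusted p = 0.141), and it was called higher with the replicate block (0.73, adjusted p = 0.0451), with quantile normalization (1.09, adjusted p = 0.0486) and without untreated replicate 2 (1.04, adjusted p = 0.0222). *Hoxa11*, which patterns the forearm, the kidney and the uterus, is printed 10 times on the array, and the mean of these spots was -6.78, -6.71, -7.00 and -6.99 in untreated cells and -7.79, -7.47, -7.82 and -7.82 after RA. These levels passed the test as lower (adjusted p = 1.94e-03), but as no array had the probe well above background no fold is given for it, and it was not called by the fold limit under any of the 4 other ways of scaling or correcting the arrays.

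**Figure D1:**
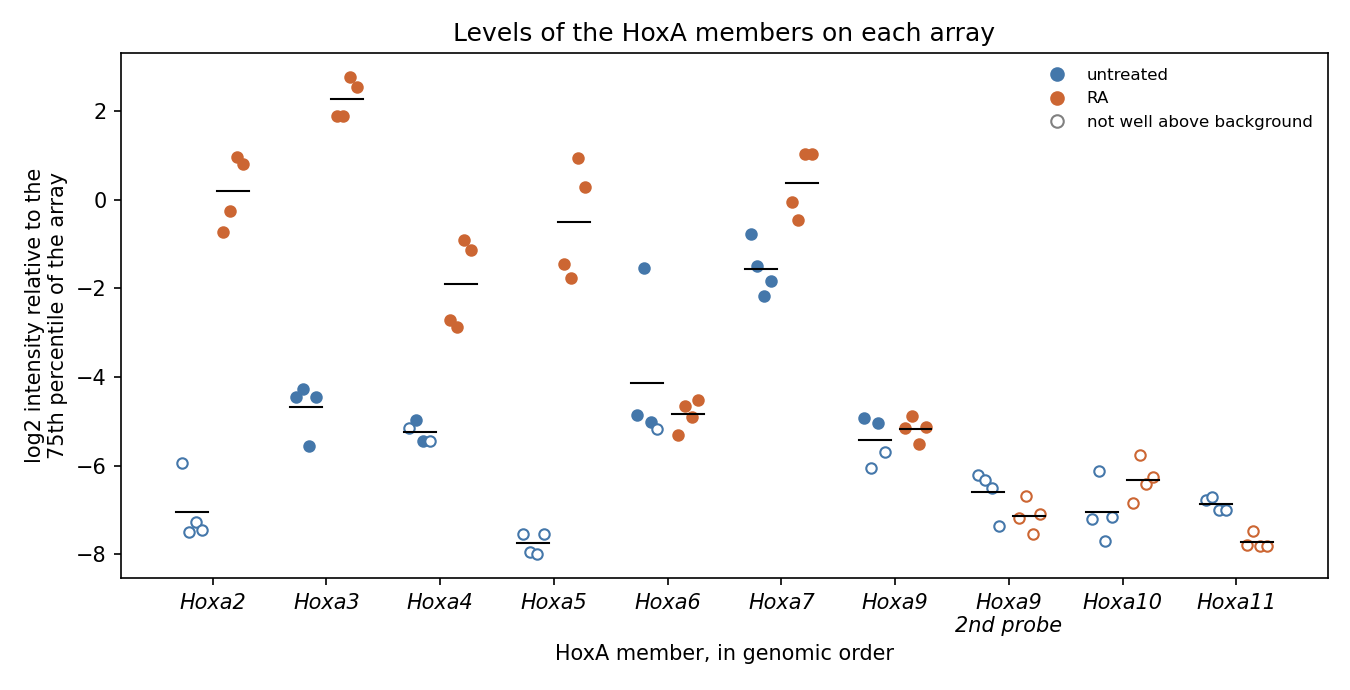
Level of each *HoxA* member on each of the 8 arrays (log2 intensity relative to the 75th percentile of the array, untreated in blue and RA in orange, replicates 1 to 4 from left to right, lines at the means). Open points were not well above background. *Hoxa2*, *Hoxa3*, *Hoxa4*, *Hoxa5* and *Hoxa7* have all RA points above all untreated points, *Hoxa6* has 1 untreated point at -1.53 far above the other 3, and the members from *Hoxa9* on stay at or below -4.87. Levels of different probes are not comparable with each other.

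All 4 RA arrays lay above all 4 untreated arrays for the 5 members that rose, an order that 13.9% of the probes showed, and all 4 lay below for *Hoxa11*, as for 23.8% of the probes. At a fold change above 2 the same 5 members were called, against 9.49% of all probes. Within each of the 2 slides, which hold 2 arrays of each condition, the changes of the 5 members had the same sign, for instance 7.22 and 6.69 for *Hoxa3* and 1.96 and 1.94 for *Hoxa7*.

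The size of the rise differed between ways of processing the arrays, while the calls of these 5 members did not. The normexp settings replace the background correction and also add an offset of 50 to each intensity, which shrinks the changes of dim probes, and how the authors' own log2 values were corrected is not known, so these choices cannot be told apart. With normexp, with or without quantile normalization, and in the authors' values, the change of *Hoxa2* came to between 3.90 and 4.01, that of *Hoxa3* to between 5.43 and 5.57, that of *Hoxa4* to between 1.69 and 1.85 and that of *Hoxa5* to between 3.54 and 3.66. *Hoxa7* came to between 1.74 and 1.78, close to its value above. All 5 members were called higher under each of these settings.

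**Figure D2:**
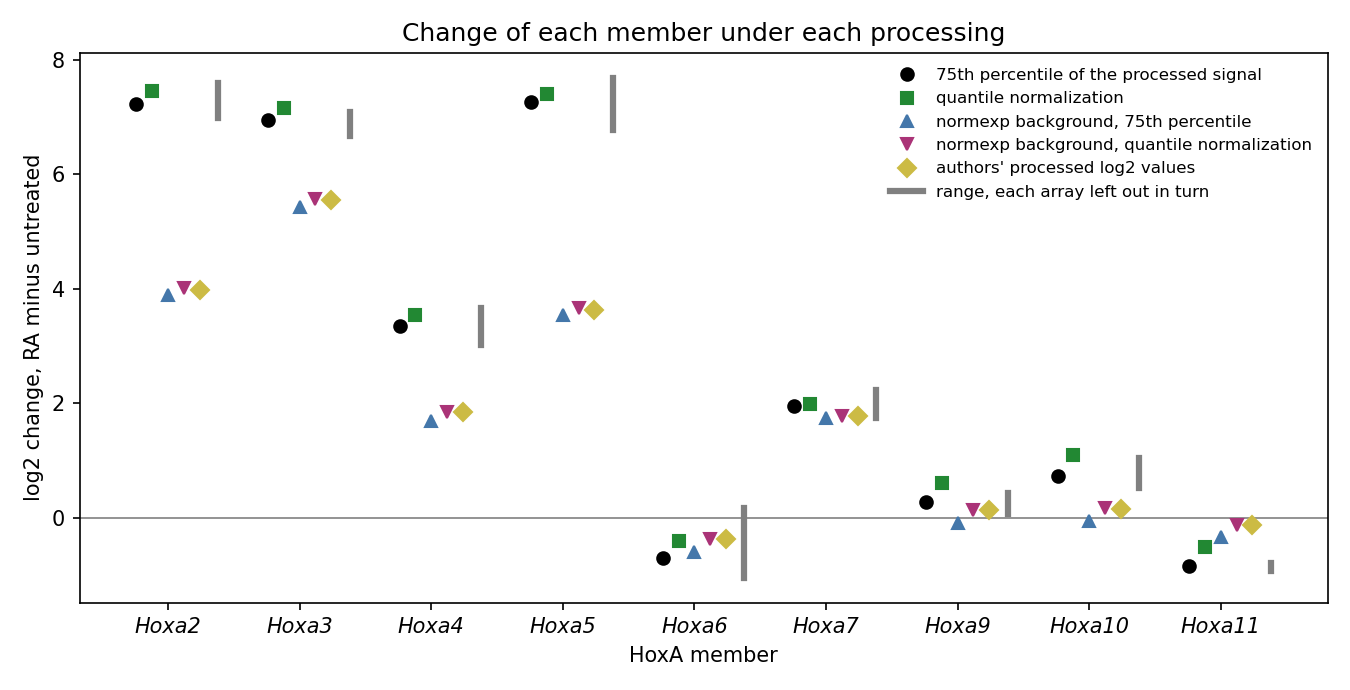
Log2 change (RA minus untreated, 4 arrays each) of each member under 5 ways of scaling and background correction, with the range over leaving out each array in turn as grey bars. The normexp settings and the authors' values give between 3.90 and 4.01 for *Hoxa2* in place of 7.23, and leave *Hoxa7* near 1.95.

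The design allows the question of where along the cluster the response changed, since the difference between neighbours on the same array does not depend on the scaling factor of that array. The change did not run evenly along the cluster. Of the 6 neighbouring pairs that could be measured, 4 differed in their change (exact permutation test over the 8 arrays, two-sided, p = 0.0286, the smallest that the design can give, and adjusted p = 0.0429 over the 6 pairs). *Hoxa3* rose more than *Hoxa4* by 3.62 ± 0.38 (SE) on the log2 scale, *Hoxa4* rose less than *Hoxa5* (difference -3.92 ± 0.24), *Hoxa5* differed from *Hoxa6* by 7.96 ± 1.14, and *Hoxa6* from *Hoxa7* by -2.65 ± 0.96. As no untreated array had *Hoxa5* well above background, the sizes of its differences depend on the background treatment, and they were -1.85 (*Hoxa4* minus *Hoxa5*) and 4.15 (*Hoxa5* minus *Hoxa6*) with normexp and -1.79 and 4.00 in the authors' values. Without untreated replicate 2, where the spot of the dim *Hoxa6* probe stood apart, *Hoxa5* minus *Hoxa6* was 7.03 and *Hoxa6* minus *Hoxa7* was -1.81. The order thus dropped at *Hoxa4*, came back at *Hoxa5*, dropped at *Hoxa6* and came back at *Hoxa7*.

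The remaining neighbouring pairs did not pass. *Hoxa7* and *Hoxa9* differed by 1.69 ± 0.61 (exact permutation p = 0.0571, adjusted p = 0.0686). *Hoxa2* and *Hoxa3* differed by 0.28 ± 0.48 (exact permutation p = 0.6286), but *Hoxa2* rose less than *Hoxa3* with normexp (-1.53) and in the authors' values (-1.57), so the order of these members is not settled. With so few arrays the adjusted values sit near the threshold. They were above it with quantile normalization and on leaving out untreated replicate 2 or RA replicate 1, 3 or 4, with 0 pairs passing in each case, although the differences of the 4 pairs kept their sign. The replicate numbers were taken to pair the cultures, although the labels do not state a pairing. A test within the 4 pairs cannot give a p below 0.125, so no pair passed with the replicate block either.

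**Figure D3:**
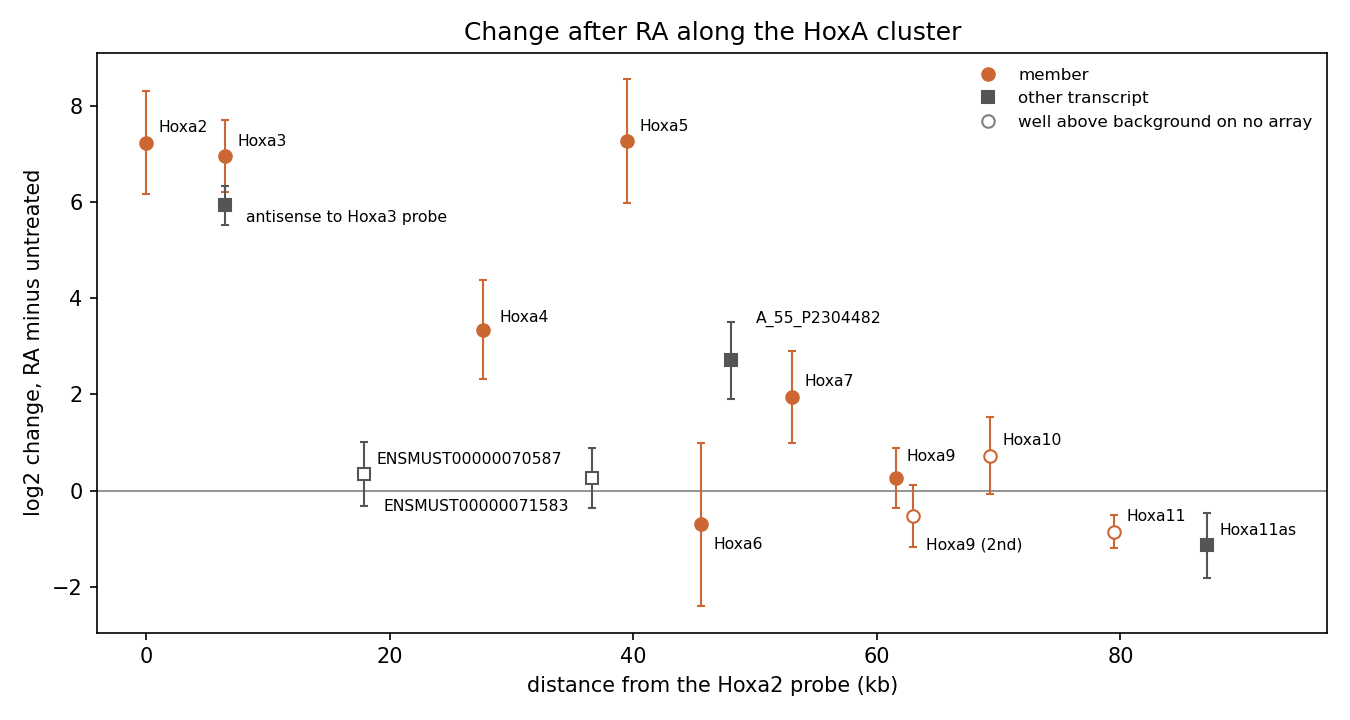
Log2 change after RA (RA minus untreated, bars are 95% confidence intervals from limma, 4 arrays per condition) against distance from the *Hoxa2* probe in kb, for the members (circles) and other transcripts of the locus (squares). Open symbols were well above background on no array. *Hoxa5* at 39.5 kb stands beside *Hoxa6* at 45.6 kb, with changes of 7.26 and -0.70. Changes of *Hoxa2*, *Hoxa5*, the antisense transcript and the unnamed probe are fitted values, since these were not well above background in untreated cells.

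*Hoxa5* and *Hoxa6*, the neighbours that differed most, have their RefSeq start sites 4.1 kb apart, and the 250 bases before each start are shown to compare their base composition. Both are on the minus strand of GRCm38, at chr6:52204588-52204837 for *Hoxa5* and chr6:52208673-52208922 for *Hoxa6*, were taken from RefSeq, and have CpG dinucleotides in capitals.

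Hoxa5: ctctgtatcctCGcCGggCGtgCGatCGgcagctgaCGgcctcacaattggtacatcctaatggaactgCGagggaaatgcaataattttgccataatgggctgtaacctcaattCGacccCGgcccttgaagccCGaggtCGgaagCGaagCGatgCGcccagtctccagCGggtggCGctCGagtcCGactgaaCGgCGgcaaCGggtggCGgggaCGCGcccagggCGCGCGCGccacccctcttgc

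Hoxa6: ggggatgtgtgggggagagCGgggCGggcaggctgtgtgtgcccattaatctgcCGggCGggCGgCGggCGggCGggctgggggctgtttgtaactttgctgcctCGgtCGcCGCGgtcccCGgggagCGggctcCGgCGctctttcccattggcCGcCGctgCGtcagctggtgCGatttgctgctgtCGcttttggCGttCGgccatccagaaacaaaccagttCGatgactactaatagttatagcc

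Both stretches are rich in CpG. *Hoxa5* has 28 and *Hoxa6* 24 in the 250 bases, and over windows that also take in the first 50 bases after the start the counts were 29 and 26, which 16.9% of 32851 RefSeq windows reach with 26 or more (median 7). RefSeq gave a window for 8 of the 9 members (9 windows, as *Hoxa10* has a pair of starts), and the start it gives for *Hoxa3* lies between those of *Hoxa6* and *Hoxa7*. The letters AGGTCA are a half-site for nuclear receptors, and the RA receptors bind 2 half-sites as a pair. This half-site was found, on either strand, in 1 of the 9 windows, that of *Hoxa5*, and in 16.3% of all windows. The other half-sites searched were AGTTCA (no member, 14% of all windows), GGGTCA (*Hoxa11*, 13.7%) and GGTTCA (*Hoxa7* and *Hoxa9*, 10.4%). No member window held 2 such half-sites as a direct repeat with 5 bases between them (0.0974% of all windows) or with 2 bases between them (0.268%). The letters TTTATG, which Cdx factors bind, were found in the window of *Hoxa7* alone and in 11.9% of all windows.

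Other transcripts of the locus moved with the nearest members in some cases and not in others. A transcript named ENSMUST00000155922 has its probe on the strand opposite to *Hoxa3* (chr6:52119107-52119166, mm9), and 40 of the 60 bases of that probe are the reverse complement of the *Hoxa3* probe. Since the labelled RNA keeps its strand, the 2 probes read different strands of the same stretch. The level of this antisense transcript was -7.56, -7.97, -8.04 and -7.54 in untreated cells, not well above background, and -2.08, -1.90, -1.85 and -1.57 after RA, which makes it at least 13.9-fold higher with the scanner software's correction (adjusted p = 7.88e-07). Its change was 2.40 on the log2 scale with normexp and 2.51 in the authors' values. An unnamed probe between *Hoxa6* and *Hoxa7* (A_55_P2304482, chr6:52160572-52160631, mm9, minus strand) was not well above background in untreated cells but was so on 3 of 4 RA arrays, at -4.34, -5.79, -4.23 and -4.31, and was called higher (adjusted p = 3.54e-04), at least 1.97-fold. This call was lost with normexp and the 75th percentile, where the change was 0.47 on the log2 scale and thus under the fold limit. The change was 0.69 with normexp and quantile normalization and 0.67 in the authors' values. ENSMUST00000070587, between *Hoxa3* and *Hoxa4*, and ENSMUST00000071583, between *Hoxa4* and *Hoxa5*, were well above background on no array.

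Past the *Hoxa11* end, the antisense RNA *Hoxa11as* (now *Hoxa11os*) was well above background on all 8 arrays and was called lower, a call lost with normexp and quantile normalization (-0.37, adjusted p = 0.0546) and in the authors' values (-0.37, adjusted p = 0.054). It stood at -3.75, -3.45, -3.26 and -4.08 in untreated cells and -4.61, -4.05, -5.29 and -5.15 after RA. The conditions overlapped slightly, and the change was -1.14 ± 0.30 (SE; adjusted p = 0.0158). On the *Hoxa2* side, 20 probes for long noncoding RNA named only by position, 48.4 to 59.6 kb before the *Hoxa2* probe, held 0 that were higher and 3 that were lower, beside 12.9% and 21.6% of all probes. Beyond the cluster, *Skap2* on the *Hoxa2* side rose by 0.68 ± 0.20 (SE; adjusted p = 0.0255), a call that was lost on leaving out any of 5 arrays, and *Hibadh* on the *Hoxa11* side changed by -0.01 ± 0.16 (SE; adjusted p = 0.979).

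Mammals have 4 Hox clusters that arose by duplication, and the genes at the same place in each, the paralogues, encode similar proteins. The paralogues of the members in the other clusters were called higher in 7 of 7 cases in *HoxB*, 4 of 6 in *HoxC* and 3 of 5 in *HoxD*, and none was called lower. The paralogues not called were those of groups 10 and 11, which, apart from *Hoxc10* on 1 RA array, were well above background nowhere. In groups 10 and 11 no Hox gene of the 4 clusters was called higher, except that *Hoxa10*, well above background nowhere, passed with the replicate block, with quantile normalization and without untreated replicate 2. *HoxA* had an uncalled member in groups 6 and 9 too, where each measured paralogue rose. *Hoxb6* rose at least 25.8-fold (adjusted p = 2.08e-04), and *Hoxc6* changed by 4.61 ± 0.56 (SE; adjusted p = 2.42e-04). The change of *Hoxb6* came down to 2.66 on the log2 scale in the alternative with the smallest change. *Hoxb9* and *Hoxc9* changed by 2.76 and 6.16. *Hoxd9*, well above background on no untreated array, rose at least 6.59-fold. Its fitted change was 3.73 on the log2 scale and came down to 1.31 in the alternative with the smallest change.

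The difference between a member and its paralogue was tested on the same arrays for the 14 pairs that could be measured, a set of pairs picked with their values already known. The rule for a pair was that of the neighbours, and how often other pairs of probes would pass was not examined. Of these, 10 pairs differed (exact permutation p = 0.0286, adjusted p = 0.04 over the 14 pairs). With the replicate block 0 of the 14 passed (adjusted p = 0.175 for the 10, exact permutation test within 4 pairs of cultures). On the log2 scale the change of *Hoxa6* minus that of *Hoxb6* was -5.50 ± 1.21 (SE), and minus that of *Hoxc6* -5.32 ± 1.25 (SE). *Hoxa9* fell short of *Hoxc9* (-5.90 ± 1.02) and *Hoxd9* (-3.47 ± 0.60). *Hoxa4* rose less than *Hoxb4* (-3.08 ± 0.27), *Hoxc4* (-2.55 ± 0.41) and *Hoxd4* (-1.40 ± 0.49), and *Hoxa7* less than *Hoxb7* (-1.74 ± 0.24). Only *Hoxa3* against *Hoxd3* (3.45 ± 0.28) and *Hoxa5* against *Hoxc5* (2.36 ± 0.36) went the other way among the 10.

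Some of these calls rested on single arrays, and the sizes of most depended on the background treatment. *Hoxa4* against *Hoxd4* did not pass on leaving out any of the 4 RA arrays (adjusted p between 0.0727 and 0.1091 by the exact permutation test). *Hoxa6* against *Hoxc6* did not pass without RA replicate 1 or RA replicate 3, nor *Hoxa9* against *Hoxc9* without untreated replicate 4 (adjusted p = 0.08 in each case, exact permutation test), nor *Hoxa6* against *Hoxb6* without untreated replicate 2 (adjusted p = 0.0727, exact permutation test). Without RA replicate 1 or RA replicate 3 the remaining 8 of the 10 pairs stood at an adjusted p of 0.05 (exact permutation test), at the limit and not under it. With normexp and in the authors' values all 10 passed and kept their sign. *Hoxa6* then differed from *Hoxb6* by -3.27 and -3.16 and from *Hoxc6* by -3.41 and -3.31, and *Hoxa9* from *Hoxc9* by -3.96 and -3.85 and from *Hoxd9* by -1.41 and -1.35. *Hoxa4* differed from *Hoxd4* by -0.66 and -0.63, *Hoxa7* from *Hoxb7* by -1.07 and -1.13, and *Hoxa5* from *Hoxc5* by 0.99 and 0.95.

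For *Hoxa2*, *Hoxa3* and *Hoxa5* the difference from the *HoxB* paralogue did not pass. *Hoxa2* and *Hoxb2* differed by -0.40 ± 0.26 (SE; exact permutation p = 0.1714), *Hoxa3* and *Hoxb3* by 0.31 ± 0.34 (exact permutation p = 0.4286), and *Hoxa5* and *Hoxb5* by 0.06 ± 0.24 (exact permutation p = 0.8857). The first pair and the second depended on the background treatment, since *Hoxa2* rose less than *Hoxb2* with normexp (-1.85) and in the authors' values (-1.90), and *Hoxa3* more than *Hoxb3* (2.39 and 2.44), each with an adjusted p of 0.0333 by the exact permutation test. *Hoxa9* and *Hoxb9* differed by -2.50 ± 0.93, which did not pass (exact permutation p = 0.0571, adjusted p = 0.0727). For a gene that was not well above background in untreated cells, such as *Hoxa2*, *Hoxa5*, *Hoxb3*, *Hoxb5*, *Hoxb6*, *Hoxc5*, *Hoxd3* or *Hoxd9*, the fitted change enters these differences, and it depends on the background treatment as described above. Such genes met the rule for a pair through their RA arrays alone.

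**Figure D4:**
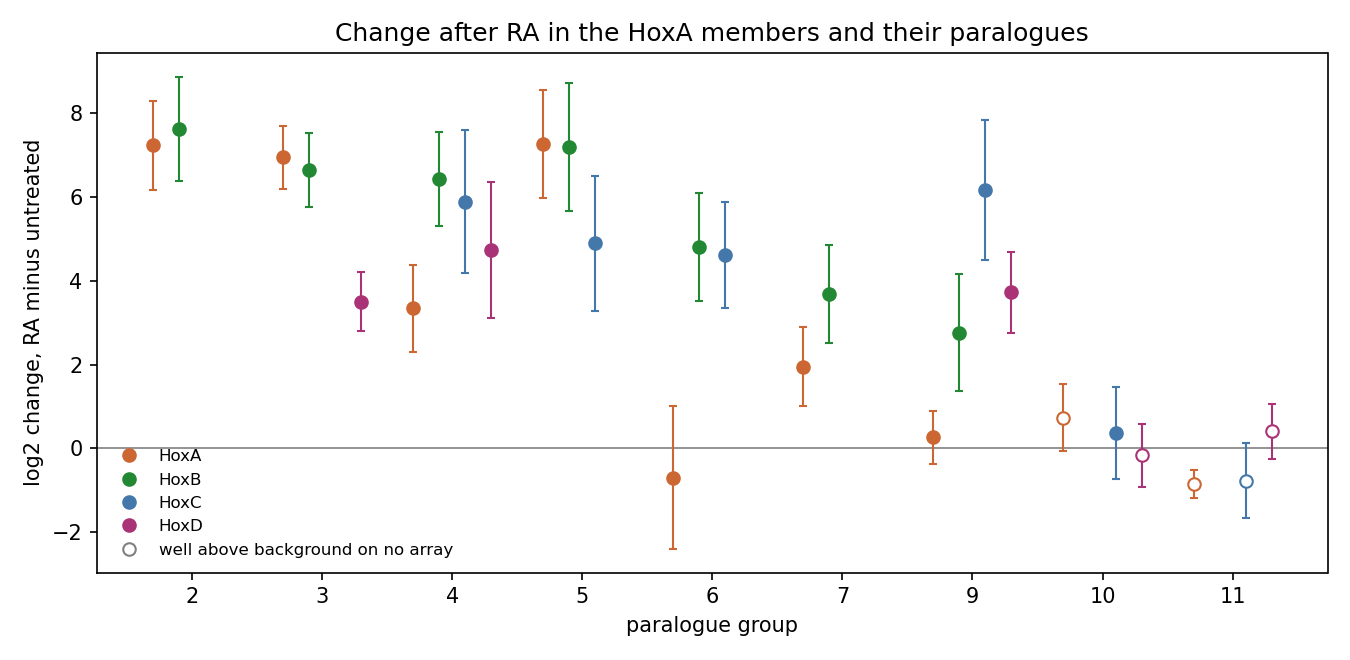
Log2 change after RA (RA minus untreated, bars are 95% confidence intervals from limma, 4 arrays per condition) by paralogue group, for the *HoxA* members and their paralogues in *HoxB*, *HoxC* and *HoxD*. Open symbols were well above background on no array. In group 6 *HoxA* is at -0.70 beside 4.8 in *HoxB* and 4.61 in *HoxC*, in group 4 it is the lowest of the 4 clusters, and the changes plotted for groups 10 and 11 lie between -0.85 and 0.73. Changes of genes not well above background in untreated cells, such as *Hoxb6* and *Hoxd9*, are fitted values.

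The RA arrays were not alike in the size of the rise. RA replicates 3 and 4 stood above RA replicates 1 and 2 for each of the 5 members that rose. This order was present in 19.8% of the 30082 probes that were well above background on all RA arrays, and in 27.9% of the 6496 of these that were called higher. It is not the split between the slides. It was also present in 13 of the 14 paralogues called higher, in 7 of the 9 genes of the TALE family and in 9 of 14 genes for RA receptors, RA binding and RA turnover, among them *Rarb* (2.05, 1.26, 3.24 and 2.85 in RA replicates 1 to 4), which encodes an RA receptor, *Cyp26a1* (0.82, 0.94, 3.08 and 1.92), which encodes an enzyme that degrades RA, and *Dhrs3* (1.40, 0.81, 4.26 and 3.32), a reductase of retinaldehyde. The opposite order, present in 26.7% of the probes well above background on all RA arrays, was found for *Pou5f1*, the pluripotency factor Oct4 (0.39, 2.05, -0.68 and -1.16), for the collagen gene *Col1a1* (3.1, 2.72, 0.00 and 1.05) and for the homeobox gene *Cdx2* (-0.22, 0.06, -0.94 and -1.41), while *Cdx1* had the order of the members. Of the 9 ES cell markers 7 had this opposite order and 1, *Klf4*, the order of the members, and of the 10 fibroblast markers 5 had the opposite order and 0 that of the members. Among lists described below, 4 of 9 neural markers, 6 of 15 Polycomb genes and 3 of 6 hindbrain genes had the order of the members, and 1 of each the opposite. The opposite order was found in 4 of 10 endoderm and 4 of 10 posterior mesoderm markers, and that of the members in 1 of each. The part of these differences between arrays in the changes of the members was not tested. The RA arrays spread more for *Hoxa5* (SD 1.31, n = 4) and *Hoxa4* (SD 1.03, n = 4) than for *Hoxa3* (SD 0.45, n = 4), and the antisense transcript at *Hoxa3* had an SD of 0.21 (n = 4).

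**Figure D5:**
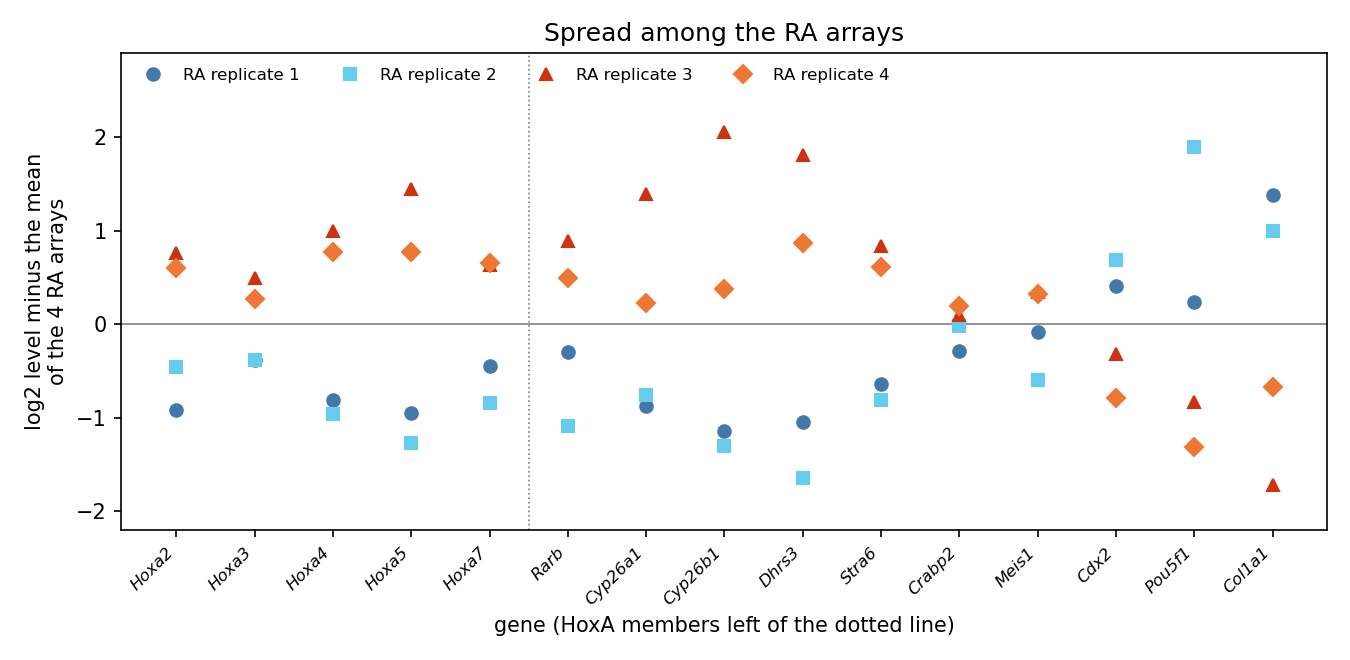
Level on each RA array minus the mean of the 4 RA arrays (log2 scale) for the 5 members that rose, left of the dotted line, and for genes of the RA response and markers. RA replicates 3 and 4 lie above 0 and RA replicates 1 and 2 below 0 for *Hoxa2*, *Hoxa3*, *Hoxa4*, *Hoxa5* and *Hoxa7* and for *Rarb*, *Cyp26a1*, *Cyp26b1*, *Dhrs3* and *Stra6*, while *Cdx2*, *Pou5f1* and *Col1a1* show the opposite.

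Over the whole cultures, of which each array reads a mixture, fewer cells of a type and less RNA per cell cannot be told apart. The RNA carried the marks of its label in untreated cells, where all 9 ES cell markers on the array were well above background on all arrays. All 9 were lower after RA (log2 of their summed level 8.22 to 8.72 before and 3.41 to 5.19 after). Of the primitive and visceral endoderm markers 10 of 10 were higher (3.21 to 4.62 before, 6.20 to 6.64 after), and of the fibroblast markers 8 of 10 (6.21 to 6.91 before, 7.09 to 7.92 after), where *Postn* and *Lum* were well above background on no untreated array. The fibroblast markers *Thy1* and *Fn1* were not called, and *Fn1* was called lower with the replicate block (-0.68, adjusted p = 0.0475). Of the neural markers, which the study's aim of neuronal differentiation concerns, 3 of 9 were higher (*Zic1*, *Nes* and *Ncam1*), 1 was lower (*Tubb3*) and 5 were not called (2.82 to 3.54 before, 3.97 to 4.15 after). Of the posterior mesoderm markers 4 of 10 were higher and 1 lower (1.13 to 1.38 before, 1.68 to 2.44 after), and of 5 blood markers 0 were higher and 2 lower (-0.64 to 3.59 before, -3.11 to -1.60 after). The lower mesoderm marker, *Mixl1*, was well above background on no array. The upper end of the untreated blood range came from *Hba-a1*, not called, which reached 3.49 on 1 untreated array against an untreated mean of -1.56. The ES cell, endoderm and fibroblast markers shifted between the conditions in most of their genes, and the part of any of these lists in the rise of the members was not tested.

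The machinery around the cluster was described from lists of genes, each to be read against 12.9% of probes higher and 21.6% lower. Among the 14 genes of RA receptors and RA turnover 8 were higher, 3 lower and 3 not called, with a median change of 3.45. *Aldh1a2*, among those not called, was called higher with the replicate block (3.61, adjusted p = 0.0252). The same held with normexp and the 75th percentile (2.60, adjusted p = 0.0144). *Rarb* changed by 7.21 ± 0.40 (SE; adjusted p = 5.31e-06) and *Cyp26a1* by 6.09 ± 0.53 (adjusted p = 4.23e-05) while the receptor gene *Rarg* changed by -2.73 ± 0.17 (adjusted p = 7.87e-06). Of 9 genes of the TALE family, whose Meis, Pbx and Pknox proteins bind DNA together with Hox proteins, 7 were higher and 0 lower (median 1.57), with *Meis1* at 5.51 ± 0.25 (adjusted p = 2.42e-06) and *Meis2* at 4.8 ± 0.32 (adjusted p = 1.16e-05). Of the Cdx genes, which act upstream of central Hox genes, *Cdx2* rose (3.02 ± 0.32, adjusted p = 1.19e-04), *Cdx1* was not called (0.19, adjusted p = 0.706) and *Cdx4* was called lower but well above background on no array.

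Genes of the Polycomb complexes, which keep the cluster silent in ES cells, moved both ways, with 7 of 15 higher, 5 lower and 3 not called (median 0.06). *Jarid2* (-2.59 ± 0.17, adjusted p = 1.2e-05) and *Phc1* (-2.70 ± 0.22, adjusted p = 2.71e-05) were lower, *Phc2* rose by 2.76 ± 0.19 (adjusted p = 1.46e-05), and *Cbx8*, the subunit that the study is about, was at least 6.42-fold higher (adjusted p = 3.25e-04). The change of *Cbx8* came down to 1.16 on the log2 scale in the alternative with the smallest change. Of 9 genes in a list of Trithorax genes and H3K27 demethylases, which oppose Polycomb, that also holds the insulator gene *Ctcf*, 1 was higher (*Kdm6b*, 1.50 ± 0.27, adjusted p = 2.38e-03), 2 were lower (*Wdr5* and *Rbbp5*) and 6 were not called (median -0.37). Of 6 genes of hindbrain segmentation, where *Hoxa2* and *Hoxa3* act, 3 were higher, 1 lower and 2 not called (median 1.81). *Egr2*, a driver of *Hoxa2* there, changed by -1.33 ± 0.33 (adjusted p = 0.0112).

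*Hoxa3* was the member with the largest rise among those measured on all 8 arrays, and the genes outside the cluster whose levels followed it most closely over the 8 arrays were *Crabp2* (Pearson's r 0.9987), which encodes an RA-binding protein, *Wnt5b* (0.9986), a Wnt ligand, and *Emd* (0.9984), a protein of the inner nuclear membrane. Likeness is dominated by the difference between the conditions, and 139 other probes of the 27493 compared had an r above 0.99. The sizes of the rise differed, with 3.94 ± 0.21 (SE) for *Crabp2*, 3.68 ± 0.25 for *Wnt5b* and 0.80 ± 0.12 for *Emd*, beside 6.96 for *Hoxa3*.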

How the data were processed

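RNA of 4 untreated and 4 RA-treated cultures was amplified from the poly(A) tail, labelled with Cy3 and hybridised to Agilent SurePrint G3 Mouse arrays (8 arrays on 2 slides, 2 of each condition per slide, 1 scan day). The deposited scanner files (Feature Extraction 10.7.3.1, mm9) hold the intensity of each spot after the scanner software's background correction. The authors' deposited table holds log2 values with a median of 6.89 on each array, whose background correction and normalization are not given in the sources used here. It was an alternative, and its columns correlated with the scanner values of their own arrays at r between 0.963 and 0.975, although for untreated replicates 2 and 3 another array came slightly closer (0.968 and 0.966).

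Log2 intensities minus the 75th percentile of the 59305 spots that are not controls were averaged over the spots of a probe, without spots flagged as outliers, and 55681 probes were tested with limma 3.58.1 in R 4.3.3 (RA against untreated, Benjamini-Hochberg adjustment over all probes, tested on simulated data). A call needed an adjusted p under 0.05 and a fold change above 1.5. A gene was represented by its brightest probe over the 8 arrays. Where no array of a condition had it well above background, an approximate lower limit of the fold is given against the dimmest probe that was. Neighbours and paralogues were compared by exact two-sided permutation tests over arrays. Same-numbered cultures deviated together weakly (r = 0.186, 0.189, 0.104 and 0.151 over 27515 probes, against -0.269 to 0.142 between cultures of unlike number). The labels do not state a pairing and these ranges overlap, but the replicate numbers were taken as pairs for the replicate block. That block changed the calls of *Hoxa10* (adjusted p = 0.0451), *Aldh1a2* (adjusted p = 0.0252) and *Fn1* (adjusted p = 0.0475). Promoters were taken from RefSeq (GRCm38.p6). Alternatives were quantile normalization, normexp background correction (offset 50), a filter on dim probes, slide and replicate blocks, and leaving out each array. The genes named are the members, their paralogues, transcripts of the locus, the 3 genes most like *Hoxa3* and members of the lists. The members and lists were chosen with earlier results of these data known. Some transcripts that this rule picks are not reported here. The number of arrays limits the precision, and 56.7% to 62.7% of spots per array were well above background.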

Additional observations from a re-analysis of the deposited data

Results flagged for a closer look

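In 5 of 30 groups of 4 arrays examined a single array stood far from the others, where chance gives about 1 in 20. *Hoxa6* in untreated replicate 2 was at -1.53, with the other untreated arrays between -5.18 and -4.85. *Hoxa2* in untreated replicate 1 was at -5.94 (others -7.50 to -7.27), and *Hoxa3* in untreated replicate 3 at -5.56 (others -4.46 to -4.26). *Hoxa11* in RA replicate 2 was at -7.47 (others -7.82 to -7.79), and the unnamed probe A_55_P2304482 in RA replicate 2 was at -5.79 (others -4.34 to -4.23). Neither *Hoxa2* nor *Hoxa11* was well above background on any of the arrays of that condition.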

How the results depend on the processing

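The 5 members called higher kept that call under every alternative that was run, and the number of members called higher was 5 or 6. The sixth was *Hoxa10*, which passed with quantile normalization (1.09, adjusted p = 0.0486), with the replicate block (0.73, adjusted p = 0.0451) and without untreated replicate 2 (1.04, adjusted p = 0.0222), although it was well above background on no array. The replicate block changed no other call of a member. The number called lower was 0 with quantile normalization, with normexp, with both, in the authors' values, with the filter on dim probes and at a fold change above 2, and also when only members well above background in at least 1 condition were counted, an alternative chosen after seeing the data. *Hoxa11* did not pass with normexp and quantile normalization (-0.14, adjusted p = 0.0652) or in the authors' values (-0.13, adjusted p = 0.0782). The number of neighbouring pairs that differed was 0 with quantile normalization and with the replicate block, and between 0 and 4 on leaving out an array (0 without untreated replicate 2, RA replicate 1, RA replicate 3 or RA replicate 4). It was 6 with normexp and in the authors' values, and 5 with the mean over all probes of a gene. The difference between *Hoxa2* and *Hoxa3* reversed to -1.53 with normexp and -1.57 in the authors' values. *Hoxa7* differed from *Hoxa9* with normexp (1.84) and without RA replicate 2 (2.07). The number of paralogue pairs that differed was between 8 and 10 on leaving out an array and 0 with the replicate block, where 4 pairs of cultures cannot give a p below 0.125, and it was 12 with normexp and in the authors' values. The 8 pairs counted without RA replicate 1 or without RA replicate 3 had an adjusted p of 0.05 by the exact permutation test, which is at the limit and not under it. Without untreated replicate 2, *Hoxa6* no longer passed against *Hoxb6* (-4.51, adjusted p = 0.0727 by the exact permutation test). For the 73 other genes examined, 1146 of 1160 values kept their side of an adjusted p of 0.05, 9 moved above it and 5 moved below it. Of these values 0 passed in the opposite direction, although genes that were not called could change sign, such as *Cdx1*, between -0.14 and 0.45. Calls of *Hoxa11as* were lost with normexp and quantile normalization (-0.37) and in the authors' values (-0.37).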
